A study of Mus musculus with 36 samples.

Results

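The libraries described here are the 6 of the series' 36 that hold ribosome-protected fragments (RPFs) from the pellet and from fraction 5/6 of wild-type brain in the low nuclease preparation. They were chosen by name, as the columns of the raw count table for WT pellet (labelled granule) replicates 1 to 3 and WT fraction 5/6 (labelled polysome) replicates 1 to 3 that do not carry the mark of the high-magnesium preparation. RPFs are the stretches of mRNA that a ribosome shields from nuclease, so a count of RPFs on a gene follows the number of ribosomes on its mRNA. The whole brains of C57BL/6 mice aged 5 days, 10 to a preparation, were prepared under the control treatment and homogenized in a buffer with 2.5 mM MgCl2, and polyribosomes were spread on a sucrose gradient. Ribosome clusters were taken from fractions 5 and 6, and the densest material, named RNA granules in the labels, was taken from the pellet under the gradient. Each group had 3 libraries. The comparison asks which mRNAs take a larger share of the RPFs in the pellet libraries than in the fraction 5/6 libraries. Each library is scaled by its own counts, so the amount of RPFs in each fraction does not enter. The study called this measure enrichment, and computed it from its standard nuclease treatment and not from the libraries described here. It reported that RPFs at low nuclease were longer, less periodic and less often in coding regions.

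For 2 tests the same fractions of other libraries were used, again 3 to a group. WT mice of the same strain and age were also prepared with 10 mM MgCl2 and with nuclease set by the absorbance of each sample, called the standard nuclease preparation. FMR1 KO mice (FMR1 -/y) of the same age, which lack the RNA-binding protein FMRP, were also prepared with 2.5 mM MgCl2. Each preparation pooled animals and cell types, so the values are averages over whole brains. The replicates of a condition were given linkers of their own and pooled before reverse transcription, so a fraction and its library pool cannot be told apart. The labels do not say whether a pellet and a fraction 5/6 library of the same number came from 1 gradient, and where samples are not from separate preparations the p-values measure technical spread only.

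In neurons, mRNAs are packed into dense granules with stalled ribosomes, and these granules are carried into dendrites and axons, where translation can be resumed. Polysomes grow heavier with the number of ribosomes on an mRNA, which depends on the length of its coding sequence. Ribosomes that make secreted or membrane proteins are brought to the endoplasmic reticulum (ER) by a hydrophobic stretch of the nascent chain, either a signal peptide at the N terminus or a membrane-spanning segment.

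The 6 libraries held 23634940 to 45374271 counts. Cdk8, which took 2.69% to 5.62% of them, was dropped. The 10 genes with most counts took a further 9.63% to 12.9% of what remained, and mitochondrially encoded mRNAs took 0.00085% to 0.0027%. The check of the genotype labels held in these libraries. Fmr1 had 63.3, 69.0 and 62.6 CPM (counts scaled to a common library size) in the pellet and 90.8, 90.7 and 106 in fraction 5/6, against 6.49 to 9.89 CPM in the 6 low nuclease libraries of FMR1 KO. In the standard preparation 1 library went against its label. The library labelled WT fraction 5/6 replicate 3 had an Fmr1 level of 2.90 CPM, against 61.1 to 90.9 in its 5 WT companions. On log2 CPM, libraries of different fractions were 118.4 apart on average and libraries of the same fraction 95.6, 1.24 times as far, and p was 0.1 by an exact permutation test in the one-sided form, a value that cannot be smaller for groups of 3.

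Many mRNAs differed between the pellet and fraction 5/6. Of 15586 genes tested, 2229 were higher in the pellet (14.3%) and 1338 were lower (8.58%), by the quasi-likelihood test of edgeR at a Benjamini-Hochberg adjusted p under 0.05. Every adjusted p below comes from that test, over all genes of the fit. Rises were larger than falls. The median size of the log2 fold change (pellet over fraction 5/6) was 1.03 among the genes that rose and 0.54 among those that fell, and 1171 rises but 70 falls were larger than 1. The 3 pellet and 3 fraction 5/6 libraries did not overlap in CPM for 7358 genes (47.2% of those tested), among them 3560 of the 3567 genes called. A fit that blocks on the replicate number called 2942 higher and 2082 lower.

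The number of calls rested on the full set of libraries. With 1 pellet library left out, 955 genes were higher and 125 lower (without replicate 1), 1186 and 429 (without replicate 2), or 916 and 70 (without replicate 3). With 1 fraction 5/6 library left out, the counts were 1124 and 230 (without replicate 1), 1817 and 726 (without replicate 2), or 1601 and 634 (without replicate 3). In all 6 of these fits together, 787 of the genes called higher and 55 of those called lower passed. For genes of the naming rule whose test stands in parentheses below, the largest adjusted p with 1 library left out follows where any of these fits lost the call.

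The split between rises and falls rests on the scaling of the libraries. By the TMM scaling used throughout, 62.5% of the genes called were higher in the pellet, against 44.9% by library size alone and 44.5% by upper quartile scaling. The median of all genes was -0.02 by TMM, -0.14 by library size alone and -0.13 by upper quartile scaling, so values below are best read relative to that median.

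The 12 largest rises among genes with separate libraries and a mean of at least 5 CPM included Ntn5, Sec1, Pamr1, Grin2d, Itga6, Eng, Fuz, Adam12, Lamb2, Dnajc1 and L1cam. Ntn5 (chr7:45684022-45694556 on GRCm38, a netrin family gene) had 871, 913 and 1164 CPM in the pellet and 26.0, 17.4 and 14.7 in fraction 5/6 (log2 fold change 5.67, standard error 0.32, adjusted p = 0.0018). Its neighbour Sec1 lies across it on the opposite strand, and the counts of the pair were nearly the same in each library, so they are 1 signal that cannot be assigned to either gene. Whole-brain RNA (here the mean of 3 WT libraries of the standard preparation) held 0.199 CPM of Ntn5, and the highest RPF library stood 5856 times above it. The series also holds WT RNA libraries of the low nuclease preparation, which were not used for the RNA level. Grin2d (chr7:45831883-45878378), the GluN2D subunit of NMDA receptors, had 891, 939 and 1196 CPM against 29.8, 30.1 and 38.1 (log2 fold change 4.95, standard error 0.23, adjusted p = 0.0018). Adam12 (chr7:133883199-134232146), a metalloprotease of the cell surface, had 46.1, 45.5 and 49.6 CPM against 2.22, 3.18 and 4.10 (log2 fold change 3.88, standard error 0.23, adjusted p = 0.0024), the pellet libraries lying within a few CPM of each other.

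In some of these rises the pellet libraries lay far apart. Fuz, which acts in the making of cilia, had 1124, 1063 and 99.5 CPM in the pellet, where replicate 3 lay far under the others, and 39.3, 64.3 and 38.9 in fraction 5/6 (log2 fold change 4.00, standard error 0.90, adjusted p = 0.0281, 0.0869 without fraction 5/6 replicate 1). Of the 12, 9 kept an adjusted p under 0.05 when each library was left out in turn, and Fuz and Dnajc1 were among those that did not. In 11 of the 12 the highest RPF library was more than 5 times the CPM of the gene in whole-brain RNA, Lamb2 being the exception at 4.72 times.

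In most of the largest falls 1 or 2 of the 3 fraction 5/6 libraries stood far above the other. The 12 largest falls included Foxl2, Tcf7l2, Cenpn, Mroh6, Pawr, Tbx21, Ubxn2a, Smtn, Gm8909, Fblim1 and Tcf7. Fblim1 (chr4:141576062-141606096), a protein that links filamin to cell adhesions, had 334, 231 and 223 CPM in fraction 5/6 and 11.7, 12.8 and 8.70 in the pellet (log2 fold change -4.56, standard error 0.25, adjusted p = 0.0018). It was 1 of the 2 falls of the 12 that passed with every library left out in turn. Tcf7l2, a transcription factor of the Wnt pathway, had 162, 14347 and 17137 CPM in fraction 5/6 against 82.1, 87.4 and 70.3 in the pellet, with 1 fraction 5/6 library near the pellet level (log2 fold change -7.04, standard error 1.62, adjusted p = 0.0305, 0.103 without pellet replicate 3, and 0.107 with the block). With the block, 4 kept their calls, among them Fblim1, Mroh6 and Gm8909, and the other 8 had an adjusted p of 0.0673 to 0.132. In the 11 named here the highest fraction 5/6 library was 15.6 to 823 times the RNA level.

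**Figure D1:**
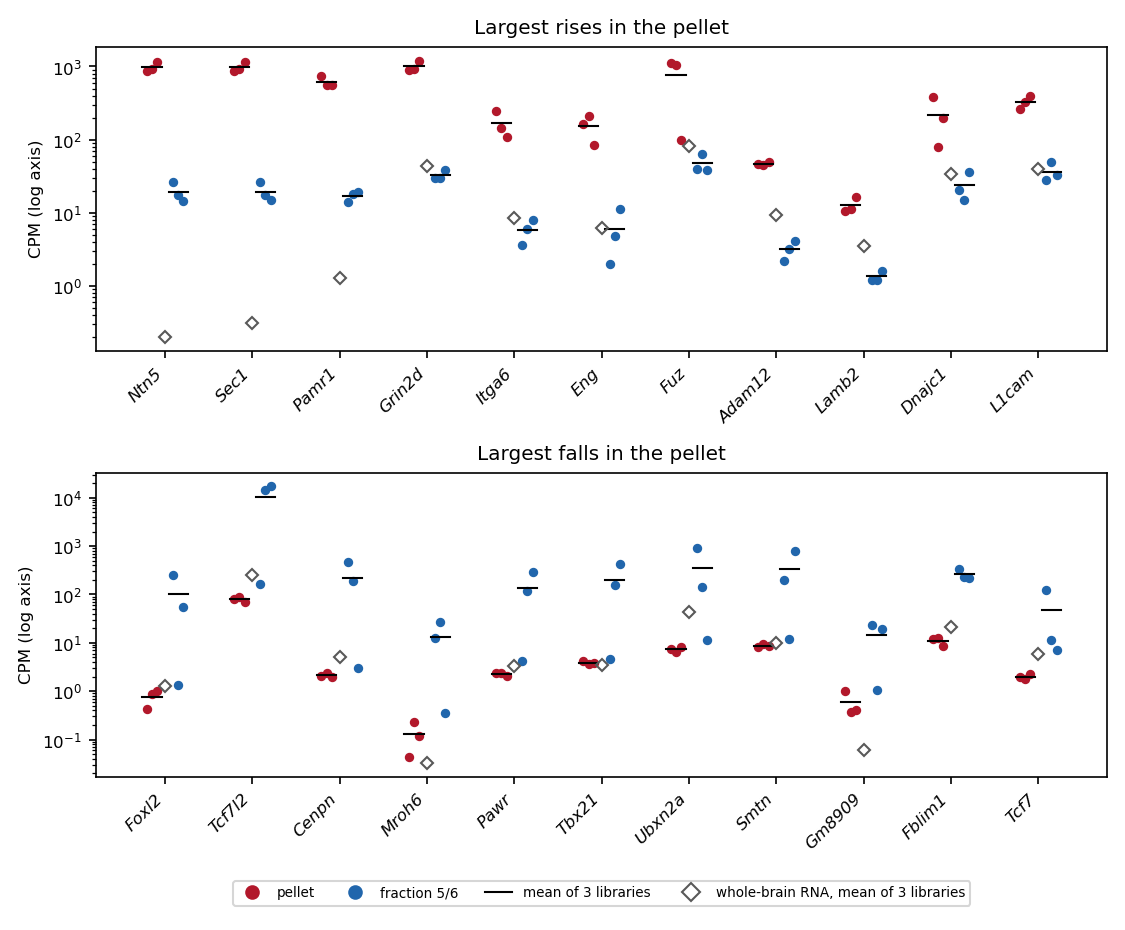
CPM (log axis) of the named genes among the largest rises and falls in each pellet library (red) and fraction 5/6 library (blue), with the mean of 3 libraries as a line and the mean of 3 whole-brain RNA libraries of the standard preparation as a diamond. Fblim1 has all 3 fraction 5/6 points at 223 CPM or more, far above its pellet points, while Foxl2, Cenpn, Tbx21 and Ubxn2a have a fraction 5/6 point close to the pellet points.

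Counts far above the RNA level were found across the table. A library stood over 5 times the RNA level in 902 genes, which included 106 of the genes called higher and 38 of those called lower. With these 902 genes left out, an alternative added after seeing the data, 2546 genes were higher and 1579 lower of 14684. The genes with the most counts in the pellet, not scaled to length, included Ubtf, Ube4b, Map1b, Itga9, Peak1, Tubb5 and Actb. Itga9 had 8253, 10482 and 8189 CPM in the pellet and 12171, 9745 and 4817 in fraction 5/6 against 3.54 in RNA. Of the 8 genes with the most counts, Map1b alone passed the test, and the libraries of the others overlapped. What puts these counts above the RNA level was not tested.

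Among genes within 5 times of the RNA level, the 12 largest rises were Lamb2, Hectd4, Dync1h1, Trrap, Herc2, Herc1, Reln, Map1a, Prkdc, Slc12a9, Lrp1 and Birc6, a set added after seeing the data. All 12 kept their call with every library left out in turn. Dync1h1, the heavy chain of the dynein motor that carries cargo along microtubules, had 685, 717 and 681 CPM in the pellet and 86.4, 96.3 and 96.9 in fraction 5/6 (log2 fold change 2.90, standard error 0.14, adjusted p = 0.0018). Hectd4, a large protein with a HECT ubiquitin ligase domain, had 785, 929 and 870.3 CPM against 75.3, 126 and 101 (log2 fold change 3.09, standard error 0.24, adjusted p = 0.00401). Map1a, a microtubule-associated protein, had 959.8, 1002 and 978 CPM against 145, 171 and 113 (log2 fold change 2.78, standard error 0.21, adjusted p = 0.00401). In these 3 genes the spread among the pellet libraries was small beside the gap to fraction 5/6. The proteins encoded by the 12 genes ran from 914 to 4859 residues, against a median of 463 over all genes tested.

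The corresponding falls were in Mdfi, U2af1l4 with the overlapping Gm49396, Rps19bp1, Tfeb, Spen, Grp, Rab7, Aen, Dbi, Ubb and Rpl37. In Mdfi, the largest of them, the libraries were 0.742, 0.596 and 0.796 CPM in the pellet and 21, 13.1 and 1.03 in fraction 5/6 (log2 fold change -4.03, standard error 1.04, adjusted p = 0.0392, 0.117 without pellet replicate 3, and 0.0699 with the block). Aen, an exonuclease, had 20.8, 20.9 and 17.4 CPM in the pellet and 49.6, 35.2 and 49.7 in fraction 5/6 (log2 fold change -1.18, standard error 0.17, adjusted p = 0.00981) and kept its call with each library left out. Ubb, a gene for ubiquitin, had 253, 295 and 208 CPM in the pellet and 507, 650.5 and 423 in fraction 5/6 (log2 fold change -1.06, standard error 0.22, adjusted p = 0.024, 0.0882 without pellet replicate 3). Dbi, which binds acyl-CoA, had 98.9, 54.8 and 79.3 CPM against 208, 122 and 166 (log2 fold change -1.09, standard error 0.28, adjusted p = 0.0388, 0.108 without pellet replicate 3). Spen, a large nuclear repressor of transcription with a coding sequence of 3643 codons, had 117, 129 and 97.8 CPM against 375, 274 and 270.5 (log2 fold change -1.42, standard error 0.19, adjusted p = 0.0092). In the standard preparation the log2 fold change of Spen was positive, 0.85 with all libraries (adjusted p = 0.64) and 1.73 without the library in doubt (adjusted p = 0.0157). Of proteins over 1600 residues, Spen and Zan were the 2 that fell. Among these 12 falls, Aen and Spen alone passed with each library left out. With the block Mdfi, U2af1l4, Gm49396, Rps19bp1 and Tfeb lost the call, at adjusted p of 0.0622 to 0.103.

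Enrichment rose with the length of the encoded protein. Of 2025 genes for proteins of up to 200 residues, 22 were higher in the pellet and 346 lower, with a median log2 fold change of -0.37. For over 200 and up to 400 residues, 158 of 4339 were higher and 625 lower (median -0.17). For over 400 and up to 800 residues, 745 of 5675 were higher and 321 lower (median 0.03, and -0.09 by library size alone). For over 800 and up to 1600 residues, 855 of 2579 were higher and 28 lower (median 0.42), and for over 1600 residues 429 of 729 were higher and 2 lower (median 0.93). With the replicate block, 767 of up to 200 residues were lower, 285 of over 200 and up to 400 were higher, 46 of over 800 and up to 1600 were lower and 4 of over 1600 were lower, and the other counts moved by less than 1.5 times. Across 15347 genes with a coding sequence in the annotation, Spearman's rho between length and log2 fold change was 0.49, a description across genes that share the same 6 libraries and are not independent replicates. The GC content of the coding sequence had a rho of 0.035.

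**Figure D2:**
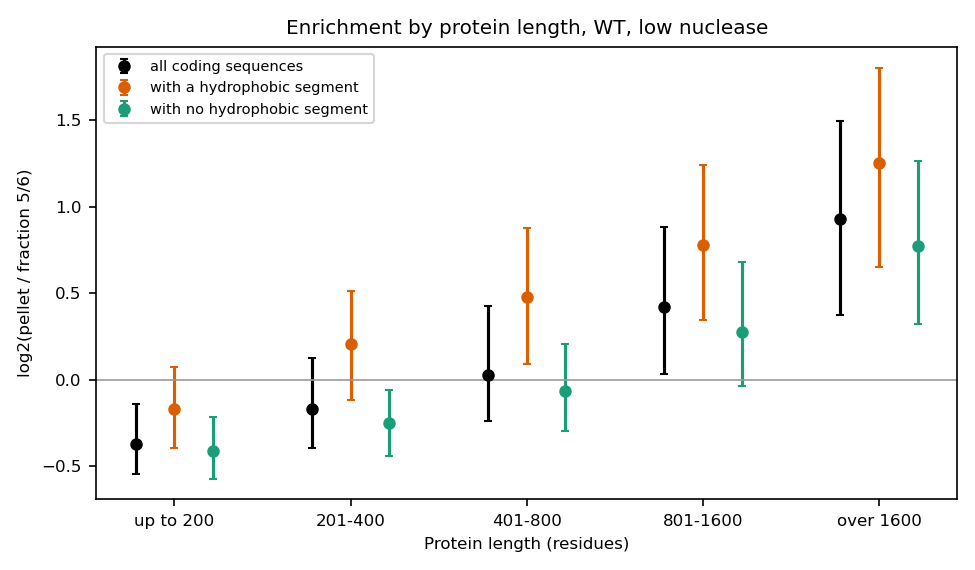
Median log2 fold change (pellet over fraction 5/6) with its quartiles, by protein length in residues, for all coding sequences and for those with and without a hydrophobic segment of 19 residues. The median over all coding sequences goes from -0.37 in the shortest bin to 0.93 in the longest, and in each bin the coding sequences with a segment lie above those without.

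Length was not the sole feature that went with enrichment. The start of a coding sequence was described by its most hydrophobic window of 12 residues within residues 1 to 35, on the Kyte-Doolittle scale, which is high for a signal peptide. In the top quartile of genes by this value (over 1.48), 857 of 3812 were higher in the pellet and 92 lower (168 with the block), with a median of 0.31. In the other quartiles the medians were -0.13, -0.09 and -0.09. The first 105 coding bases of 7 genes are shown to let these starts be compared, with the codons of that window in capitals (GENCODE M21 on GRCm38, coding strand, 5′ to 3′). Reln encodes reelin, a secreted guide of migrating neurons, Lrp1 an endocytic receptor, Clstn3 an adhesion protein of synapses and L1cam an adhesion protein of axons. Slc1a2 encodes the main glutamate transporter of astrocytes, which spans the membrane several times and has no signal peptide, Dync1h1 the cytosolic dynein heavy chain and Rpl37 a protein of the large ribosomal subunit.
Reln: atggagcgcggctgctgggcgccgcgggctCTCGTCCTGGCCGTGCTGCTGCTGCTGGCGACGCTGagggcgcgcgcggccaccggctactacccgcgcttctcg
Lrp1: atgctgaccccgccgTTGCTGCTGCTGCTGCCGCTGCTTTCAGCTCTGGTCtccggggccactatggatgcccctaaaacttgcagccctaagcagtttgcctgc
Clstn3: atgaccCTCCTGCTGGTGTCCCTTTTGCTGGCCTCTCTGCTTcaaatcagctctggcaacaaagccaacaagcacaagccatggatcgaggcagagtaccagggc
L1cam: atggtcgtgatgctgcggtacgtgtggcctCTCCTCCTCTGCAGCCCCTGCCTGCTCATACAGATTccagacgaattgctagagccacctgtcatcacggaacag
Slc1a2: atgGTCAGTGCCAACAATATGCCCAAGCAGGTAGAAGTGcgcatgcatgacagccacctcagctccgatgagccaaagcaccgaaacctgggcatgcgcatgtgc
Dync1h1: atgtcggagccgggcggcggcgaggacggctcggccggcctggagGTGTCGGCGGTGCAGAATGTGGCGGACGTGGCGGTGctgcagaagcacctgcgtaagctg
Rpl37: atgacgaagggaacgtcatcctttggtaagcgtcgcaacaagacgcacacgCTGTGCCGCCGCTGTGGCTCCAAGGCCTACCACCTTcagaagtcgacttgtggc

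The window reached a mean hydropathy of 3.2 in Reln (chr5:21884454-22344702), 2.8 in Lrp1 (chr10:127538161-127621148), 2.9 in Clstn3 (chr6:124430759-124464794) and 2.3 in L1cam (chrX:73853778-73896105). It was 1.3 in Dync1h1 (chr12:110601452-110666945), -0.33 in Slc1a2 (chr2:102658659-102790784) and -0.35 in Rpl37 (chr15:5116645-5119140). The first 4 genes read leucine codons in a row within the capitals. They were chosen among genes that rose, so their values below say nothing about such starts in general. Reln had 133, 183 and 209.5 CPM in the pellet and 16, 27.8 and 32.4 in fraction 5/6 (log2 fold change 2.78, standard error 0.31, adjusted p = 0.00758). Lrp1 had 220.0, 281 and 337 CPM against 28.0, 45.8 and 52.5 (log2 fold change 2.73, standard error 0.29, adjusted p = 0.00674). Clstn3 had 184, 211 and 287 CPM against 25.7, 44.4 and 32 (log2 fold change 2.74, standard error 0.27, adjusted p = 0.00615). L1cam had 266, 324 and 396 CPM against 28.0, 49.2 and 32.8 (log2 fold change 3.16, standard error 0.28, adjusted p = 0.00526). In none of the 4 did the groups overlap, which also holds for 47.2% of all genes tested and for 3560 of the 3567 called. In each of the 4 the pellet and the fraction 5/6 libraries lay several fold apart.

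Slc1a2, with no hydrophobic start but 7 hydrophobic segments further on, had 939, 729 and 830.1 CPM in the pellet and 68.4, 101.8 and 113 in fraction 5/6 (log2 fold change 3.14, standard error 0.25, adjusted p = 0.00429). Rpl37 had 23.6, 26.4 and 29.1 CPM in the pellet and 71.5, 40.6 and 45.3 in fraction 5/6 (log2 fold change -0.99, standard error 0.23, adjusted p = 0.0305, 0.0881 without pellet replicate 1). A segment here is a window of 19 residues with a mean Kyte-Doolittle value of at least 1.8 anywhere in the protein, a measure added after seeing the data. Genes without a segment (11012) had a median of -0.13, with 1107 higher and 1257 lower (1898 with the block). The median was 0.28 with 1 segment (2325 genes), 0.45 with 2 to 6 (1726 genes, 449 higher and 9 lower, or 26 with the block) and 0.79 with over 6 (284 genes, 123 higher and 3 lower). Genes with a segment had the higher median in every bin of length. It was -0.17 with and -0.41 without a segment for up to 200 residues, 0.20 and -0.25 in the next bin, 0.78 and 0.27 for over 800 and up to 1600, and 1.25 and 0.77 for over 1600. For over 400 and up to 800 residues, genes with a segment had a median of 0.48 (451 of 1583 higher and 11 lower, or 26 with the block) and those without one had -0.07 (294 of 4092 higher and 310 lower). A high share of the acidic residues Asp and Glu went the other way, with a median of -0.19 in the top quartile (over 13.7% of residues), where 404 of 3835 genes were higher and 642 lower.

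Most listed genes of secreted and adhesive proteins rose, and none of them fell. Of 44 genes of the extracellular matrix and secreted proteins, 30 rose and 0 fell, with a median of 1.14. Fn1, fibronectin, had 23.7, 19.1 and 33.2 CPM in the pellet and 4.56, 4.63 and 6.04 in fraction 5/6 (log2 fold change 2.32, standard error 0.24, adjusted p = 0.00674). Lamb2, a laminin chain of basement membranes, had 10.7, 11.3 and 16.6 CPM against 1.21, 1.22 and 1.61 (log2 fold change 3.24, standard error 0.24, adjusted p = 0.00401), and Slit1, a repellent of growing axons, had 48.2, 52.4 and 72.0 against 6.91, 10.7 and 9.39 (log2 fold change 2.67, standard error 0.23, adjusted p = 0.00504). Of 66 cell adhesion and guidance receptors, 52 rose and 0 fell, with a median of 1.26. Ncam1 had 723, 854 and 962 CPM against 112, 182 and 129 (log2 fold change 2.58, standard error 0.25, adjusted p = 0.0061) and Chl1, a relative of L1cam, had 336, 408 and 468 against 57.3, 89.2 and 68.3 (log2 fold change 2.50, standard error 0.22, adjusted p = 0.00546). The 6 matrix and secreted genes of over 400 and up to 800 residues all rose (median 1.05), and of the 6 genes of over 200 and up to 400 residues 1 did, or 4 with the block (median 0.53). The 5 adhesion genes of over 400 and up to 800 residues had a median of 1.17 where all genes of that length had 0.03, and all 5 rose.

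Genes of the ER machinery that receives such proteins included both rises and falls. Of 36 genes of translocation and folding, 15 rose (41.7%) and 2 fell (5.56%), with a median of 0.33, where 14.3% of all genes tested rose and 8.58% fell. Of 18 genes of over 400 and up to 800 residues 12 rose. Hyou1, a chaperone of the lumen and longer than these, had 55.3, 60.1 and 82.4 CPM in the pellet and 10.3, 19.1 and 12.5 in fraction 5/6 (log2 fold change 2.24, standard error 0.27, adjusted p = 0.00833). Hsp90b1, the ER member of the HSP90 family with 802 residues, had 127, 144 and 202 against 30.5, 48.2 and 27.4 (log2 fold change 2.16, standard error 0.28, adjusted p = 0.00913), and Stt3a, a catalytic subunit of oligosaccharyltransferase, had 22.7, 25.7 and 35.7 against 4.14, 8.02 and 7.68 (log2 fold change 2.08, standard error 0.30, adjusted p = 0.0106). The 2 that fell were Sec61b (log2 fold change -0.64, adjusted p = 0.044), a small subunit of the translocon with a tail anchor, and Srp68 (-0.50, adjusted p = 0.0295), a cytosolic protein of the signal recognition particle.

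Ion pumps and transporters were among the most enriched lists, with 20 of 23 genes higher, 0 lower and a median of 1.70. Among them were the glutamate transporters of astrocytes, Slc1a2 with the values given above and Slc1a3 with 134, 139 and 209.6 CPM in the pellet and 33.8, 52.4 and 43.9 in fraction 5/6 (log2 fold change 1.89, standard error 0.25, adjusted p = 0.00905).

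Of 37 genes of glutamate and GABA receptors, 18 rose and 0 fell, with a median of 0.78. Grin1, the obligatory subunit of NMDA receptors, had 100.1, 110.2 and 158 CPM in the pellet and 22.3, 36.4 and 27.8 in fraction 5/6 (log2 fold change 2.09, standard error 0.25, adjusted p = 0.00817). Gria3, an AMPA receptor subunit, had 36.9, 41.4 and 55.5 CPM against 9.84, 16.6 and 15.6 (log2 fold change 1.67, standard error 0.25, adjusted p = 0.0112). Grin2a, another NMDA receptor subunit, had 181, 142 and 28.2 against 6.66, 12.5 and 21.9, where 1 pellet library was close to the highest of fraction 5/6 (log2 fold change 3.09, standard error 0.77, adjusted p = 0.0357, 0.0931 without fraction 5/6 replicate 1, and 0.102 with the block). Of 41 voltage-gated and calcium-release channels, 14 rose (23 with the block) and 0 fell, with a median of 0.70. Ryr2, which releases calcium from the ER, had 101, 107 and 130.4 CPM against 24.1, 35.9 and 46.4 (log2 fold change 1.67, standard error 0.25, adjusted p = 0.0117), and Cacna1e had 81.8, 94.7 and 122.6 against 16.7, 28.0 and 40.8 (log2 fold change 1.81, standard error 0.34, adjusted p = 0.0188, 0.0601 without pellet replicate 3). Channels followed length, with 11 of 16 genes over 1600 residues higher and none of the 9 genes of over 400 and up to 800 residues, where the block called 2.

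Synaptic scaffolds and vesicle proteins had smaller medians. Of 34 postsynaptic scaffolds and kinases, 11 rose and 0 fell, with a median of 0.28. Ppp1r9a, which binds actin in spines, had 95.9, 62.7 and 106 CPM in the pellet and 23.5, 25.0 and 26.0 in fraction 5/6 (log2 fold change 1.83, standard error 0.20, adjusted p = 0.00737). Camk2a, whose mRNA is carried into dendrites, had 409, 418 and 391 CPM against 337, 354 and 301 and missed the threshold although the libraries did not overlap (log2 fold change 0.30, standard error 0.13, adjusted p = 0.151). Of 44 genes of the synaptic vesicle and active zone, 13 rose (29.5%) and 2 fell (4.55%), with a median of 0.17, where 14.3% of all genes tested rose and 8.58% fell. Those that rose include the large scaffolds Pclo, with 247, 229 and 230.5 CPM against 68.1, 48.2 and 59.7 (log2 fold change 2.00, standard error 0.15, adjusted p = 0.00401), and Bsn, with 179.5, 173 and 165 against 42.1, 46.6 and 59.2 (log2 fold change 1.81, standard error 0.15, adjusted p = 0.00504). They also include the vesicle membrane protein Sv2a, with 169.7, 182 and 239 against 46.1, 78.6 and 62.3 (log2 fold change 1.66, standard error 0.24, adjusted p = 0.0103). The 2 that fell, Clta (log2 fold change -0.58, adjusted p = 0.0264) and Napb (-0.45, adjusted p = 0.0463), encode a clathrin light chain and a cofactor of membrane fusion.

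Large cytosolic proteins formed the most enriched list. Of 24 giant ubiquitin ligases and proteins with BEACH or VPS13 domains, 23 rose and 0 fell, with a median of 2.01. Herc2 had 377, 406 and 429 CPM in the pellet and 46.1, 61.0 and 59.5 in fraction 5/6 (log2 fold change 2.86, standard error 0.16, adjusted p = 0.0018). Birc6, which also inhibits apoptosis, had 529.6, 643 and 539 against 79.6, 109 and 73.7 (log2 fold change 2.7, standard error 0.21, adjusted p = 0.00401). The list took 0.671%, 0.77% and 0.711% of the counts of the pellet libraries and 0.142%, 0.195% and 0.139% of those of fraction 5/6, without overlap. Spectrins, ankyrins and plakins rose in 9 of 10 genes (median 0.95), as in Ank2 with 540.0, 493 and 597 CPM against 275, 276 and 266 (log2 fold change 1.00, standard error 0.14, adjusted p = 0.0102). All 10 are over 1600 residues, where 58.8% of all genes rose, with a median of 0.93.

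Among 30 motors of microtubules and actin, 12 rose and 1 fell (2 with the block), with a median of 0.32. Myh9, a non-muscle myosin, had 124, 113 and 131 CPM against 26.7, 29.3 and 24.5 (log2 fold change 2.19, standard error 0.12, adjusted p = 0.0018), and Myo5a, which carries cargo in dendrites, had 641, 550.4 and 699 against 150.2, 195 and 131 (log2 fold change 1.99, standard error 0.21, adjusted p = 0.00674). Of 14 motors over 1600 residues 10 rose, and of 10 motors of over 400 and up to 800 residues none did. Of 26 microtubule-associated proteins 7 rose (26.9%) and 2 fell (7.69%), with a median of -0.12, where 14.3% of all genes tested rose and 8.58% fell. Map1b had 9235, 10845 and 8749 CPM in the pellet and 2259, 2491 and 963 in fraction 5/6 (log2 fold change 2.34, standard error 0.45, adjusted p = 0.0198, 0.0633 without fraction 5/6 replicate 1), whereas Map2 had 2517, 3249.7 and 2216 against 3609, 3252 and 1932, which overlap (log2 fold change -0.14, standard error 0.33, adjusted p = 0.778). Of 51 chromatin regulators 24 rose and 0 fell (median 0.68), of which Trrap, an adaptor of acetyltransferases, had 273, 315 and 291 CPM against 29.8, 49.6 and 40.2 (log2 fold change 2.88, standard error 0.21, adjusted p = 0.00401). Of the 41 members over 1600 residues 56.1% rose (median 0.81), against 58.8% of all genes of that length (median 0.93). The 8 members of over 800 and up to 1600 residues had a median of 0.04 against 0.42.

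Tubulins and actins, which take many of the reads, did not pass the test in the direction of the pellet. Of 13 tubulin genes none was called, and the median was -0.03. Tubb2b had 2421, 2908 and 2049 CPM in the pellet and 2973, 2915 and 2102 in fraction 5/6 (log2 fold change -0.11, standard error 0.27, adjusted p = 0.776). Tubb5 had 8870.0, 7229 and 5974 against 7725, 8855 and 6028 (log2 fold change -0.03, standard error 0.34, adjusted p = 0.952), and Actb had 7207, 8001 and 6499 against 7300.4, 7586 and 5599 (log2 fold change 0.08, standard error 0.31, adjusted p = 0.864). The libraries of all 3 genes overlapped. Of 24 genes of actins and actin turnover 6 fell (13 with the block) and 0 rose (median -0.43), as in Cfl2, a cofilin that severs filaments, with 68.2, 65.8 and 64.3 CPM against 112, 94.1 and 95.1 (log2 fold change -0.60, standard error 0.11, adjusted p = 0.0162, 0.0656 without pellet replicate 3). Tubulins, actins, histones and ribosomal proteins have near-identical copies, and how such reads were assigned is not given in the sources used here, so single members are uncertain.

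**Figure D3:**
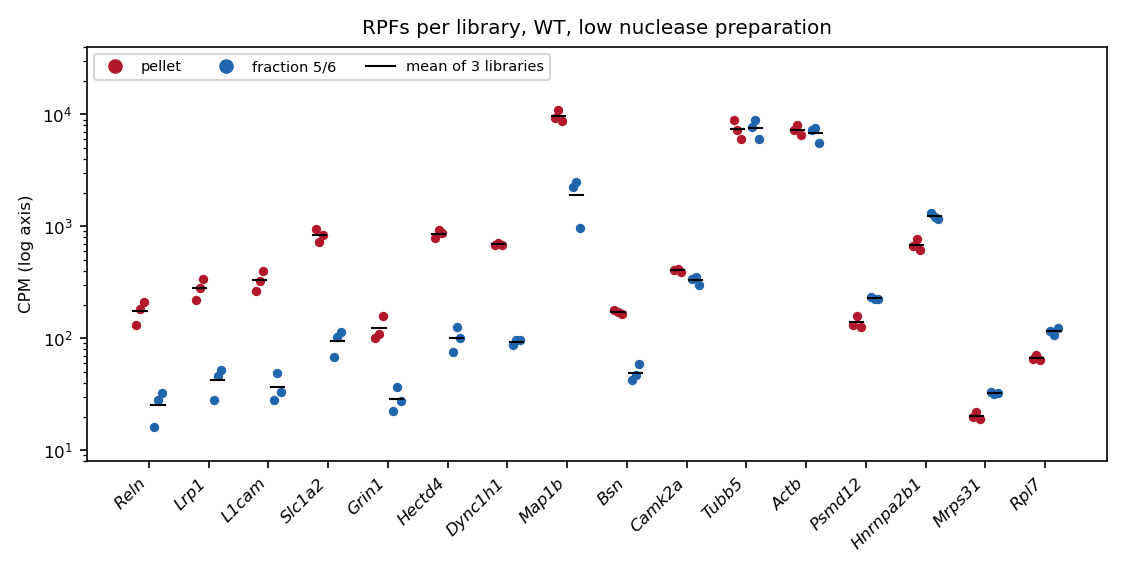
CPM (log axis) of 16 genes in each of the 3 pellet libraries (red) and 3 fraction 5/6 libraries (blue) of WT in the low nuclease preparation, with the mean of each group as a line. Reln, Hectd4 and Dync1h1 have all pellet points above all fraction 5/6 points, Tubb5 and Actb overlap, and Rpl7 and Mrps31 have all pellet points below.

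The lists drawn from other work on stalled and FMRP-bound mRNAs had positive medians, and were chosen with earlier results of this series known. Their counts are of gene rows, and since an entry can match more than 1 row, 185 entries gave 186 rows in the first list and 749 gave 751 in the last. Of 186 mRNAs whose ribosomes resisted run-off in neurons (Shah et al.), 108 rose and 2 fell, with a median of 0.95. Of 262 FMRP targets by Maurin et al., 140 rose and 0 fell, or 1 with the block (median 0.77), and of 751 FMRP targets by Darnell et al., 302 rose and 3 fell, or 6 with the block (median 0.46). The 121 run-off resistant mRNAs that are in an FMRP list had a median of 0.91 (71 higher, 0 lower) and the 65 that are in neither had 1.05 (37 higher, 2 lower). The 671 FMRP targets that are not run-off resistant had a median of 0.42 (253 higher, 3 lower, 6 lower with the block), and 14729 genes in none of the 3 lists had -0.05 (1868 higher, 1333 lower, 2073 lower with the block).

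These lists hold long coding sequences, with a median protein length of 1428 residues in the Maurin list and 1038 in the Darnell list against 463 over all genes. Within a bin of length the FMRP targets lay closer to all genes, which include the targets. For over 800 and up to 1600 residues the medians were 0.50 (Maurin) and 0.47 (Darnell) against 0.42 over all genes, and for over 1600 residues they were 1.27 and 1.12 against 0.93. For up to 200 residues they were -0.23 and -0.21 against -0.37. For over 200 and up to 400 they were -0.004 and 0.03 against -0.17, and for over 400 and up to 800 they were 0.11 and 0.12 against 0.03. The run-off resistant mRNAs had medians of 0.50 against -0.17 for over 200 and up to 400 residues, 0.27 against 0.03 for over 400 and up to 800, 1.59 against 0.42 for over 800 and up to 1600, and 1.33 against 0.93 for over 1600. Of the 63 in the bin of over 800 and up to 1600, 17 had a library over 5 times the RNA level. How far length and list membership each go with enrichment was described and not tested.

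Several lists of cytosolic, nuclear and mitochondrial proteins had negative medians. Of 79 cytosolic ribosomal proteins 53 fell and 0 rose, with a median of -0.56. Rpl7 had 65.4, 71.4 and 63.4 CPM in the pellet and 117, 107 and 123.4 in fraction 5/6 (log2 fold change -0.80, standard error 0.10, adjusted p = 0.00905), with no overlap. Rps24 had 26.9, 20.0 and 21.7 against 50.7, 35 and 33.6 (log2 fold change -0.80, standard error 0.20, adjusted p = 0.0365, 0.113 without pellet replicate 3). The list took 0.444%, 0.411% and 0.38% of the counts in the pellet and 0.631%, 0.52% and 0.528% in fraction 5/6. Its 57 members of up to 200 residues had a median of -0.57, lower than the -0.37 of all genes of that length. For over 200 and up to 400 residues the 20 members had -0.46 against -0.17.

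Of 53 replication-dependent histones that passed the filter on low counts, of 62 in the table, 15 fell and 0 rose (median -0.60), as in H2bc3 with 19.4, 14.5 and 17.0 CPM against 35.1, 28.5 and 25.2 (log2 fold change -0.80, standard error 0.17, adjusted p = 0.0237, 0.0779 without pellet replicate 3). Of 82 nuclear-encoded subunits of the respiratory chain 17 fell and 2 rose (median -0.54). Uqcrb, of complex III, had 8.94, 6.76 and 7.08 CPM against 18.8, 13.7 and 12.2 (log2 fold change -0.97, standard error 0.20, adjusted p = 0.0232, 0.08 without pellet replicate 3), and Ndufb3, of complex I, had 17.5, 14.2 and 15.0 against 37.3, 28.0 and 23.2 (log2 fold change -0.92, standard error 0.19, adjusted p = 0.0241, 0.0821 without pellet replicate 3). Of 78 mitochondrial ribosomal proteins 25 fell and 0 rose (median -0.42), as in Mrps31 with 19.9, 22.1 and 19.2 CPM against 33.2, 31.7 and 32.3 (log2 fold change -0.67, standard error 0.09, adjusted p = 0.00966). With the replicate block, the count of falls was 35 histones, 53 respiratory chain subunits and 41 mitochondrial ribosomal proteins, and 1 mitochondrial ribosomal protein rose.

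Some lists held both rises and falls. Of 37 initiation factors 4 rose (10.8%) and 9 fell (24.3%), with a median of -0.18, where 14.3% of all genes tested rose and 8.58% fell. Eif3a, with 1344 residues, had 365, 359 and 329 CPM in the pellet and 72.4, 105 and 61.6 in fraction 5/6 (log2 fold change 2.14, standard error 0.22, adjusted p = 0.00674), and Eif2s2, with 331 residues, had 23.2, 24.8 and 20.4 against 42.1, 35.9 and 41.5 (log2 fold change -0.80, standard error 0.11, adjusted p = 0.0103). Of 54 splicing factors and hnRNPs 3 rose (5.56%) and 20 fell (37%), with a median of -0.46. Prpf8, with 2335 residues at the core of the spliceosome, had 543, 618 and 551 CPM against 90.6, 136 and 79.0 (log2 fold change 2.49, standard error 0.24, adjusted p = 0.00612). Hnrnpa2b1, which binds mRNAs carried in dendrites, had 663, 771 and 614 against 1303, 1223 and 1173 (log2 fold change -0.85, standard error 0.18, adjusted p = 0.0239, 0.102 without pellet replicate 3). Of 31 proteasome subunits 13 fell (41.9%) and 1 rose (3.23%), with a median of -0.37. The 1 that rose was Psmd1, of 953 residues, with 356, 359.7 and 325 CPM against 110.2, 180.3 and 88.9 (log2 fold change 1.46, standard error 0.27, adjusted p = 0.0188, 0.0607 without fraction 5/6 replicate 1), while Psmd12 had 131, 158 and 126 against 235, 226 and 226 (log2 fold change -0.73, standard error 0.13, adjusted p = 0.0164, 0.0718 without pellet replicate 3).

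Of 35 mRNAs for proteins found in neuronal RNA granules, 3 rose (8.57%) and 9 fell (25.7%), with a median of -0.21, where 14.3% of all genes tested rose and 8.58% fell. Cyfip1, a partner of FMRP, had 173, 178 and 174 CPM in the pellet and 42.4, 76.5 and 43.6 in fraction 5/6 (log2 fold change 1.69, standard error 0.25, adjusted p = 0.0109). Fmr1 itself, with the values given above, fell (log2 fold change -0.56, standard error 0.11, adjusted p = 0.0189, 0.0833 without pellet replicate 3), and so did Tardbp, which binds RNA, with 164, 202 and 155 CPM against 291, 269 and 239 (log2 fold change -0.62, standard error 0.15, adjusted p = 0.0363, 0.134 without pellet replicate 3). Of 12 elongation factors 1 rose and 4 fell (median -0.42), the rise being Eef2 with 1777, 2022 and 1729 CPM against 892, 1176 and 724 (log2 fold change 0.99, standard error 0.25, adjusted p = 0.0364, 0.117 without fraction 5/6 replicate 1).

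In the remaining lists most members did not pass the test. The counts were 5 lower and 0 higher of 29 14-3-3 and Rab genes (median -0.32), 3 lower and 0 higher of 45 neurodevelopmental transcription factors (median -0.10), and 2 higher and 3 lower of 18 glycolytic enzymes (median -0.17). Of 20 aminoacyl-tRNA synthetases 5 rose and 1 fell (median 0.05), of 22 HSP and CCT chaperones 1 rose and 5 fell (median 0.07), and of 35 genes of the cell cycle and DNA replication 8 rose and 2 fell (median 0.06). Beside the 14.3% of all genes that rose and the 8.58% that fell, these are 11.1% and 16.7% of the glycolytic enzymes, 25% and 5% of the synthetases, 4.55% and 22.7% of the chaperones, and 22.9% and 5.71% of the cell cycle genes. Of the 14-3-3 and Rab genes 17.2% fell and of the transcription factors 6.67%. In lists of this size several of these shares lie within a few genes of the background. With the block 9 of the 14-3-3 and Rab genes fell, 8 transcription factors fell and 1 rose, and 2 chaperones rose. By library size alone the medians of the synthetases, chaperones and cell cycle genes turned negative, at -0.06, -0.04 and -0.06. The 7 mitochondrially encoded mRNAs that passed the filter on low counts, of 12 in the table, had a median of 0.83 with none called, and 4 higher with the block. Their levels were low, as for mt-Co1 with 4.14, 9.84 and 5.90 CPM in the pellet and 2.18, 5.30 and 3.79 in fraction 5/6 against 398 in whole-brain RNA.

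**Figure D4:**
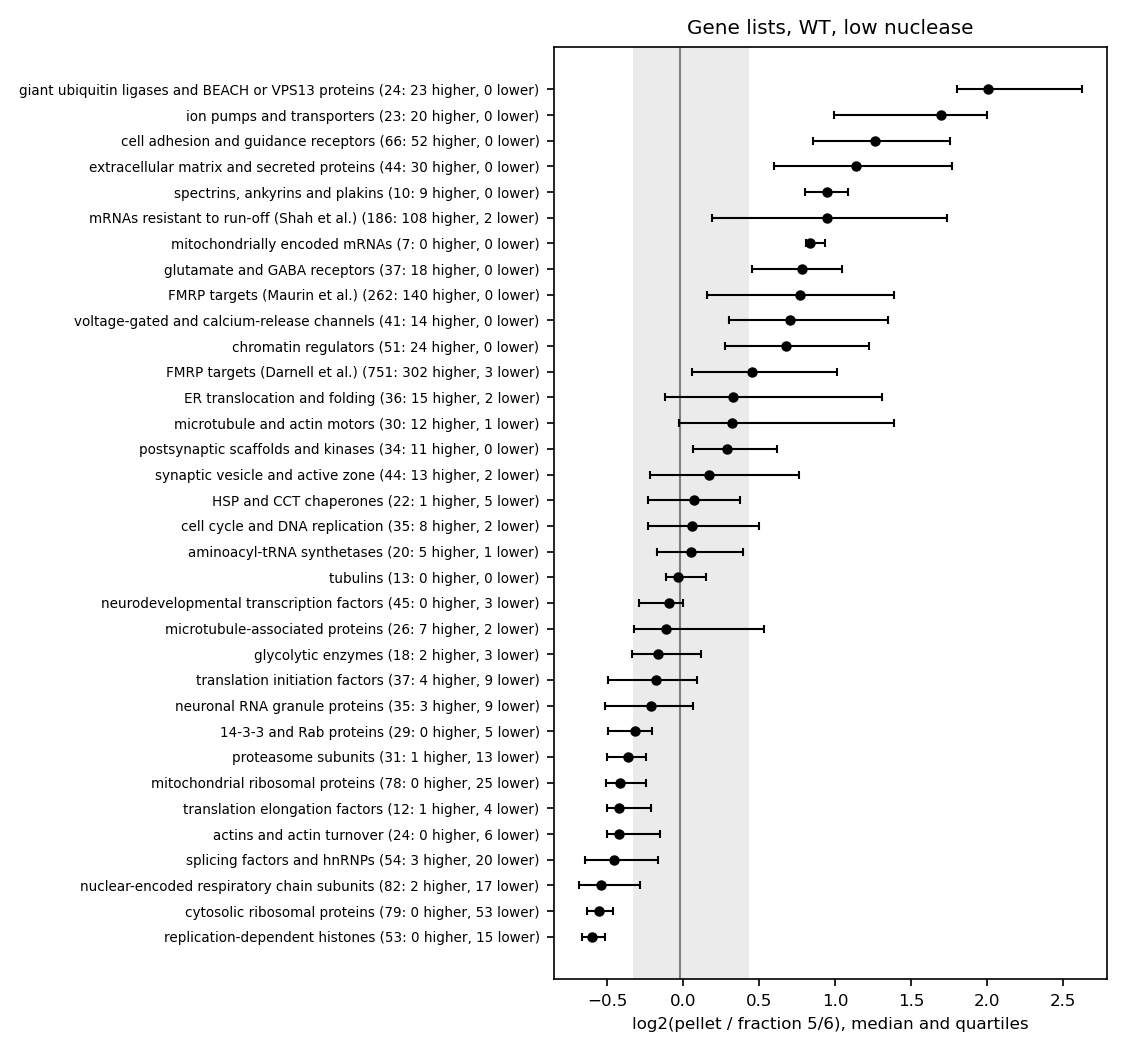
Median log2 fold change (pellet over fraction 5/6) of each gene list with its quartiles as bars, beside the median of all genes tested as a line and their quartiles as a grey band. The giant ubiquitin ligases lie highest at 2.01 and the replication-dependent histones lowest at -0.60, and the numbers of genes tested, higher and lower stand beside each name.

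Markers of cell types were read in the same libraries, to show what the pooled tissue held. In bulk libraries fewer cells of a type and less RNA per cell cannot be told apart. Beside the counts that follow, 14.3% of all genes tested rose and 8.58% fell. In lists of at most 10 markers several of the counts lie near these shares. Of 10 neuronal markers 0 rose and 1 fell, and their sum was 9290 to 12100 CPM in the pellet and 10000 to 13100 in fraction 5/6. Astrocyte and radial glia markers summed to 2300 to 2680 CPM against 1830 to 2180 (4 of 10 higher, 1 lower), and Slc1a2 is 1 of the 4. Markers of oligodendrocyte lineage summed to 588 to 732 CPM against 636 to 802 (3 of 10 higher, 1 lower), and those of microglia to 342 to 936 against 303 to 862 (2 of 10 higher, 1 lower). Markers of endothelial and mural cells summed to 73.3 to 128 CPM against 61.4 to 81.5 (4 of 10 higher, 0 lower). Those of meninges and fibroblasts summed to 252 to 400 CPM against 162 to 218 (6 of 10 higher, 0 lower).

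Markers of red blood cells (26.7 to 37.5 CPM against 30.9 to 41.4), choroid plexus and ependyma (157 to 336 against 154 to 279) and skeletal muscle (26.4 to 567 against 118 to 677) overlapped between the fractions. In these 3 lists 0 of 6, 1 of 10 and 4 of 8 markers rose, and 1, 0 and 0 fell. With the block 1 neuronal marker rose, 1 endothelial and mural marker fell, 2 red blood cell markers fell and 2 of choroid plexus and ependyma rose. No marker found in the table was at 0 in all libraries. Outside the muscle list, where the long sarcomere genes Ttn, Neb, Myh3 and Myh8 rose, the markers that rose encode membrane or secreted proteins, such as the transporter Slc1a3 described above and the collagen Col1a1 with 32.5, 33.8 and 51.2 CPM against 10.0, 11.2 and 13.2 (log2 fold change 1.77, standard error 0.21, adjusted p = 0.00829). Those that fell include the neuronal Gap43 with 949.9, 885 and 752 against 1588, 1345 and 1332 (log2 fold change -0.72, standard error 0.19, adjusted p = 0.0442, 0.163 without pellet replicate 3) and the glial Cnp with 258, 277 and 278 against 380.4, 346 and 384 (log2 fold change -0.45, standard error 0.13, adjusted p = 0.048, 0.145 without pellet replicate 1, and 0.0504 with the block). The part of cell types in the results was not tested.

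The same comparison was set beside the standard nuclease preparation of WT. There, 2 genes were higher and 1 was lower of 13135 tested (0.0228%), while 820 had p under 0.05 before adjustment. Leaving out the library whose Fmr1 level goes against its label, 1027 were higher and 235 lower of 13319. Of 13254 genes tested in both, 2111 rose at low nuclease and 1027 in the standard preparation without that library, and 763 rose in both, which is 36.1% of the first and 74.3% of the second. For falls, 88 genes were shared, 6.74% of 1306 and 39.6% of 222. Calls in opposite directions were found in 3 and 2 genes. The medians by length followed the same order, from -0.18 for up to 200 residues to 0.65 for over 1600 with all 6 libraries, and from -0.30 to 1.18 without that library. By hydrophobic feature, the highest medians without that library were again 0.18 in the top quartile of N-terminal hydropathy and 0.68 with over 6 segments. The calls went the other way. In that quartile 115 of 2801 genes were higher, against 287 of 3424 in the bottom quartile. With over 6 segments 3 of 203 were higher, against 807 of 9830 with none.

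The giant ubiquitin ligases had a median of 1.25 in the standard preparation and 2.42 without the library in doubt, beside 2.01 at low nuclease. Ion pumps and transporters had 0.82 and 1.60 beside 1.70, cell adhesion and guidance receptors 0.65 and 1.25 beside 1.26, and cytosolic ribosomal proteins -0.23 and -0.43 beside -0.56. Chromatin regulators had 0.56 and 1.04 beside 0.68. Other medians were nearer 0 in the standard preparation also without that library, with -0.15 and -0.26 beside -0.60 for replication-dependent histones, -0.13 and -0.25 beside -0.54 for respiratory chain subunits, and 0.32 and 0.52 beside 0.78 for glutamate and GABA receptors. Without that library, 21 of 24 giant ubiquitin ligases and 33 of 51 chromatin regulators rose in the standard preparation, against 23 and 24 at low nuclease. Calls were fewer there among ion pumps and transporters (2 of 23 rose, against 20), adhesion and guidance receptors (10 of 64 rose, against 52 of 66), glutamate and GABA receptors (0 of 37, against 18) and cytosolic ribosomal proteins (4 of 78 fell, against 53 of 79). That fit has 5 libraries, and these differences between the preparations were not tested for the lists. Dync1h1 had a log2 fold change of 1.35 with all standard libraries and 4.54 without that library. Of the 12 largest rises at low nuclease, 2 had a log2 fold change over 1 in the standard preparation (Lamb2 with 1.26 and L1cam with 1.39, or 3.39 and 3.14 without that library). Of the 12 largest falls, none that was tested there was under -1, with or without it.

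**Figure D5:**
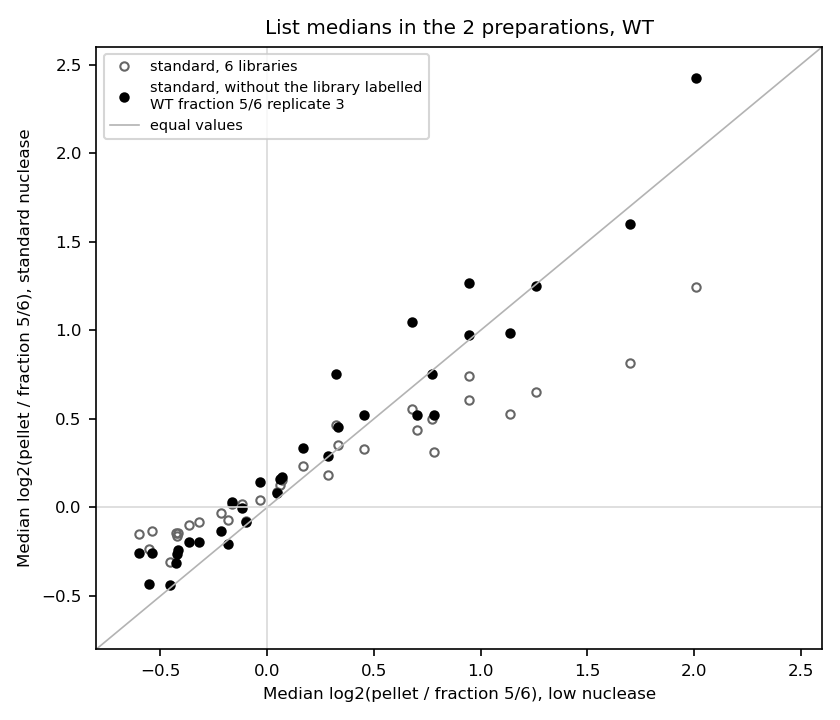
Median log2 fold change (pellet over fraction 5/6) of each gene list in the low nuclease preparation (horizontal) and the standard preparation (vertical), with all 6 standard libraries as open circles and without the library labelled WT fraction 5/6 replicate 3 as filled circles, and a line of equal values. The giant ubiquitin ligases move from 1.25 to 2.42 on the vertical axis when that library is left out.

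The difference between the preparations was tested as an interaction of preparation and fraction. Of 15130 genes 5 were higher and 4 lower (0.0595%), with 1269 at an unadjusted p under 0.05. Leaving out the standard library in doubt gave 33 higher and 11 lower. On the CPM scale of that fit, Grin2d had 688, 723 and 933 in the low nuclease pellet and 23.5, 23.5 and 31.1 in fraction 5/6, against 13.8, 11.7 and 30.5 and 10.7, 32.5 and 20.8 in the standard preparation. The high value stood in the low nuclease pellet alone, as it did for Pamr1 and Itga6. Wdr59 and Fblim1 were high in low nuclease fraction 5/6 alone. Hmx2, a transcription factor gene, and Bub3, a protein of the mitotic checkpoint, were high in standard fraction 5/6, so the difference lies in that preparation. Exph5 was high in the standard pellet. With the replicate block Fblim1, Pamr1 and Hmx2 kept their calls. Grin2d, Itga6, Wdr59, Bub3 and Exph5 lost theirs, at adjusted p of 0.0509 to 0.243.

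Between genotypes at low nuclease, the interaction of genotype and fraction called 1 gene higher and 2 lower of 15929 (0.0188%), with 1351 at an unadjusted p under 0.05. Adam12 was higher in the WT pellet, with 45.5, 44.9 and 48.9 CPM against 3.49, 6.10 and 3.94 in the FMR1 KO pellet, while fraction 5/6 had 2.19 to 4.04 in WT and 2.53 to 4.10 in FMR1 KO. Fblim1 and Spen were higher in WT fraction 5/6. Spen had 369, 271 and 267 CPM there against 53.4, 75.3 and 54.9 in FMR1 KO fraction 5/6, and its pellet libraries overlapped between the genotypes. With the replicate block Spen lost the call (adjusted p = 0.28). Of the 12 fits with 1 library left out, Spen passed in 3 and Adam12 in 4. DESeq2 called 33 genes higher and 59 lower in this test.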

How the data were processed

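RPFs were sequenced from pellets and fraction 5/6 of pooled mouse brains, and the values used are raw counts per gene. The authors trimmed reads with cutadapt 2.10, removed ribosomal reads with Bowtie2 2.3.5, aligned the rest to GRCm38 with STAR 2.7.8a and deposited featureCounts 2.2.0 counts, after PCR duplicates were marked with Picard and removed with SAMtools 1.19.2. Removing duplicates of short RPFs can also take away independent fragments with the same ends, which lowers the counts of abundant mRNAs most. How reads shared by near-identical genes were counted is not given in the sources used here.

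From the counts, Cdk8 and 26 non-coding genes of 16614 were left out, and 15586 genes passed filterByExpr. Counts were scaled by TMM and tested by edgeR 4.0.16 (quasi-likelihood, two-sided, 3 against 3 libraries, Benjamini-Hochberg adjustment, threshold 0.05) in R 4.3.3, a procedure tested on simulated data. Interactions used 4 groups of 3 libraries. DESeq2 1.42.0, limma-voom 3.58.1, other scalings and filters, a replicate block and left-out libraries were alternatives. Distances used an exact permutation test.

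Deviations of pellet and fraction 5/6 libraries of the same number correlated at 0.188, 0.118 and 0.21 across genes, and those of different numbers at -0.163 to -0.014. For the replicate block alone, the numbers were taken as pairs, from these values and not from the labels. The main comparison was fitted without pairs. Each replicate of a condition had its own linker, so libraries of the same number may also share a linker. These values cannot tell a shared linker from a shared gradient, and whether the numbers mark gradients was not tested.

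Named genes were the 12 largest rises and falls with separate libraries and at least 5 mean CPM, up to 4 called members of each of 43 lists, the 8 genes of highest pellet CPM, those called by an interaction, and, added after seeing the data, the 12 largest of each direction within 5 times of the RNA level. Clstn3, Srp68, Clta, Napb and others outside the rule were named after their values were seen. The members and lists were chosen with earlier results of these data known. Protein features were computed from GENCODE M21 coding sequences with Python 3.11.15, pandas 2.3.3 and numpy 2.4.6. The RNA level was taken from the standard preparation. The other RPF libraries entered the fit of 8 groups alone. Some genes that the rule names are not reported here.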

Additional observations from a re-analysis of the deposited data

Results flagged for a closer look

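The results below are genes whose enrichment in the WT low nuclease libraries differed from that of another group by the test of the difference itself. The values are log2 differences between 2 enrichments, tested by edgeR as in the report.

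Against the standard preparation of WT, the difference (low nuclease minus standard) was 5.10 for Grin2d, 4.72 for Pamr1, 4.48 for Itga6, 10.2 for Hmx2 and 2.83 for Bub3. It was -4.61 for Wdr59, -4.31 for Fblim1 and -3.5 for Exph5, whose mean of 4.51 CPM is the lowest of these. Fblim1, Pamr1, Hmx2, Bub3 and Wdr59 kept an adjusted p under 0.05 with each of the 12 libraries left out in turn, Grin2d in 8, Exph5 in 6 and Itga6 in 5. With the replicate block Fblim1, Pamr1 and Hmx2 passed, and the adjusted p of the other 5 was 0.0509 to 0.243. Without the standard library labelled WT fraction 5/6 replicate 3 all of these passed, with values of 5.11, 4.47, 4.00, 10.4 and 3.03 in the order above for the rises and -4.88, -4.34 and -3.86 for the falls.

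Hmx2 had 659, 918 and 436 CPM in standard fraction 5/6 and under 1 CPM in every other library of the fit. Wdr59 had 1033, 559.8 and 388 CPM in low nuclease fraction 5/6, against 42.3, 49.6 and 44.9 in the pellet. Each of these genes is high in the 3 libraries of 1 group, and those libraries were pooled before reverse transcription, so the group and its library pool cannot be told apart.

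Against FMR1 KO at low nuclease, the difference (WT minus FMR1 KO) was 3.36 for Adam12, -4.15 for Fblim1 and -2.24 for Spen. Fblim1 passed with each of the 12 libraries left out, Adam12 with 4 and Spen with 3. With the replicate block Fblim1 and Adam12 passed and Spen had an adjusted p of 0.28.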

How the results depend on the processing

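The main comparison gave 2229 genes higher and 1338 lower. The number lower was 2376 by upper quartile scaling, 453 with all 8 groups of RPF libraries in 1 fit and 2082 with the replicate block, and the number higher stayed within 1.5 times under these. DESeq2 called 2965 and 1980, limma-voom 2236 and 1344, and library size alone 1594 and 1957. Leaving out libraries gave 135 to 1817 higher and 12 to 726 lower, the lowest of both without replicate 1 in both fractions. For these counts the cause was not tested beyond the smaller number of libraries.

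Of the interaction with preparation, DESeq2 called 101 higher and 26 lower, the replicate block 2 and 2, and fits with 1 library left out 3 to 33 higher and 3 to 13 lower, with 33 and 11 without the WT fraction 5/6 library in doubt. Of that with genotype, DESeq2 called 33 higher and 59 lower, library size alone 0 and 1, and the block 1 and 1, with 0 to 3 higher and 1 to 9 lower when 1 library was left out. DESeq2's higher number was not tested for its cause. In the standard preparation, fits with 1 library left out gave 0 to 1027 higher and 0 to 235 lower. By library size alone the median was -0.28 for proteins of over 200 and up to 400 residues and -0.0866 for over 400 and up to 800. Of 202 genes named, none that was called changed direction in any of these fits, and the block took the call from 18 of them. Those 18 include 8 of the 12 largest falls.

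With 3 libraries a group, a gene that missed the threshold is not shown to be equal in both fractions. Pooled brains and pooled library preparation limit what the spread measures.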
